A study of Mus musculus with 10 samples.

Results

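The ephrin, Slit-Robo and netrin guidance genes were examined in retrogradely labeled cortical neurons of 2 types. They were taken from the table by gene symbol and comprised 40 of the 24453 genes counted: 9 EphA receptors, 5 EphB receptors, 5 ephrin-A ligands, 3 ephrin-B ligands, 3 Slits, 4 Robo receptors, 4 netrins, 2 netrin-Gs, *Dcc* and 4 Unc5 receptors. RNA-seq libraries were made from intratelencephalic projection neurons (IT-PNs) of layer 5 of the primary motor cortex (M1), and the question was how *Fezf2+ve* and *Fezf2−ve* IT-PNs differ in gene expression. All animals were male and hemizygous for (Zfp312-EGFP)CO61GsatMmnc, an EGFP reporter transgene driven by *Fezf2* regulatory elements (*Fezf2-Gfp*), on a Swiss Webster background. The retrograde tracer cholera toxin subunit B (CTB) conjugated to an Alexa dye was injected into the left M1 at P23 to P25, and right M1 was collected at P28 to P32. *Fezf2+ve* IT-PNs were sorted as cells with GFP and CTB, and *Fezf2−ve* IT-PNs as cells with CTB but without GFP. Both types came from each of 5 animals, which gave 5 libraries per type, numbered by animal.

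Several features of the samples limit what the values can show. The sorting marker was the reporter transgene, so the types were defined by GFP and not by *Fezf2* mRNA. The study reports that RT-PCR found endogenous *Fezf2* in the sorted *Fezf2+ve* samples and not in the *Fezf2−ve* samples. No library from non-transgenic mice is among the 10 used here. The mean number of sorted cells was 11280 for *Fezf2+ve* and 2688 for *Fezf2−ve* IT-PNs per the sample records, and the study's text gives another number for the latter. The RNA was reverse transcribed from oligo-dT primers and amplified by PCR and by in vitro transcription, and no molecular identifiers are described, so reads are not independent molecules and limits based on read numbers cover counting error only. Reads on genes numbered 118134, 107643, 118069, 151591 and 203379 in *Fezf2+ve* libraries 1 to 5, and 167916, 89138, 168711, 211368 and 217738 in *Fezf2−ve* libraries 1 to 5. The *Fezf2+ve* library was the smaller in 4 of 5 animals, which did not pass an exact two-sided permutation test of the paired values (p = 0.188, for which the smallest possible p with 5 animals is 0.063). At this depth, 3 reads corresponded to between 13.8 and 33.7 counts per 1000000 reads on genes (CPM). A gene without reads in a library could therefore have had a level of up to that value there.

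Ephrins are membrane-bound ligands that act on Eph receptor tyrosine kinases of neighboring cells. Ephrin-A proteins are held by a lipid anchor and ephrin-B proteins span the membrane, and both steer axons mostly by repulsion and shape synapses in the cortex. Slits are secreted repellents read by Robo receptors. Netrins attract axons through *Dcc* and repel them through Unc5 receptors, and these systems together are known for guiding callosal and corticospinal axons during development.

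In these mature neurons, reads on the guidance genes were few and lay mainly on receptors. The 40 genes held 2051 reads over the 10 libraries. The 23 Eph, Robo, *Dcc* and Unc5 receptor genes held 1945 of them (94.8%), the 15 ligand genes 85 (4.14%) and the 2 netrin-G genes 21 (1.02%). Reads were found on 31 genes, and 9 genes had none in any library: *Efna1*, *Efna3*, *Efna4*, *Epha2*, *Epha8*, *Ephb6*, *Ntn5*, *Robo3* and *Robo4*. *Robo4*, a receptor of endothelial cells, and *Robo3*, known for commissural axons of the hindbrain and spinal cord, were thus not detectable at this depth.

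The guidance genes took 0.030%, 0.059%, 0.149%, 0.093% and 0.349% of the reads on genes in *Fezf2+ve* libraries 1 to 5, which corresponded to 36, 64, 176, 141 and 710 reads. In *Fezf2−ve* libraries 1 to 5 they took 0.096%, 0.082%, 0.255%, 0.032% and 0.087%, or 162, 73, 431, 68 and 190 reads. The types overlapped, with the highest share in *Fezf2+ve* 5, the next in *Fezf2−ve* 3 and the lowest shares in *Fezf2+ve* 1 and *Fezf2−ve* 4. The mean share was 0.136% ± 0.127 against 0.111% ± 0.085 (SD, n = 5 libraries of each type), a difference smaller than the spread within either type. Without animal 5 the means were 0.083% in *Fezf2+ve* and 0.117% in *Fezf2−ve* libraries, so the direction turned. Without animal 3 they were 0.133% and 0.074%. Between 9 and 19 of the 40 genes had reads in a library.

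**Figure D1:**
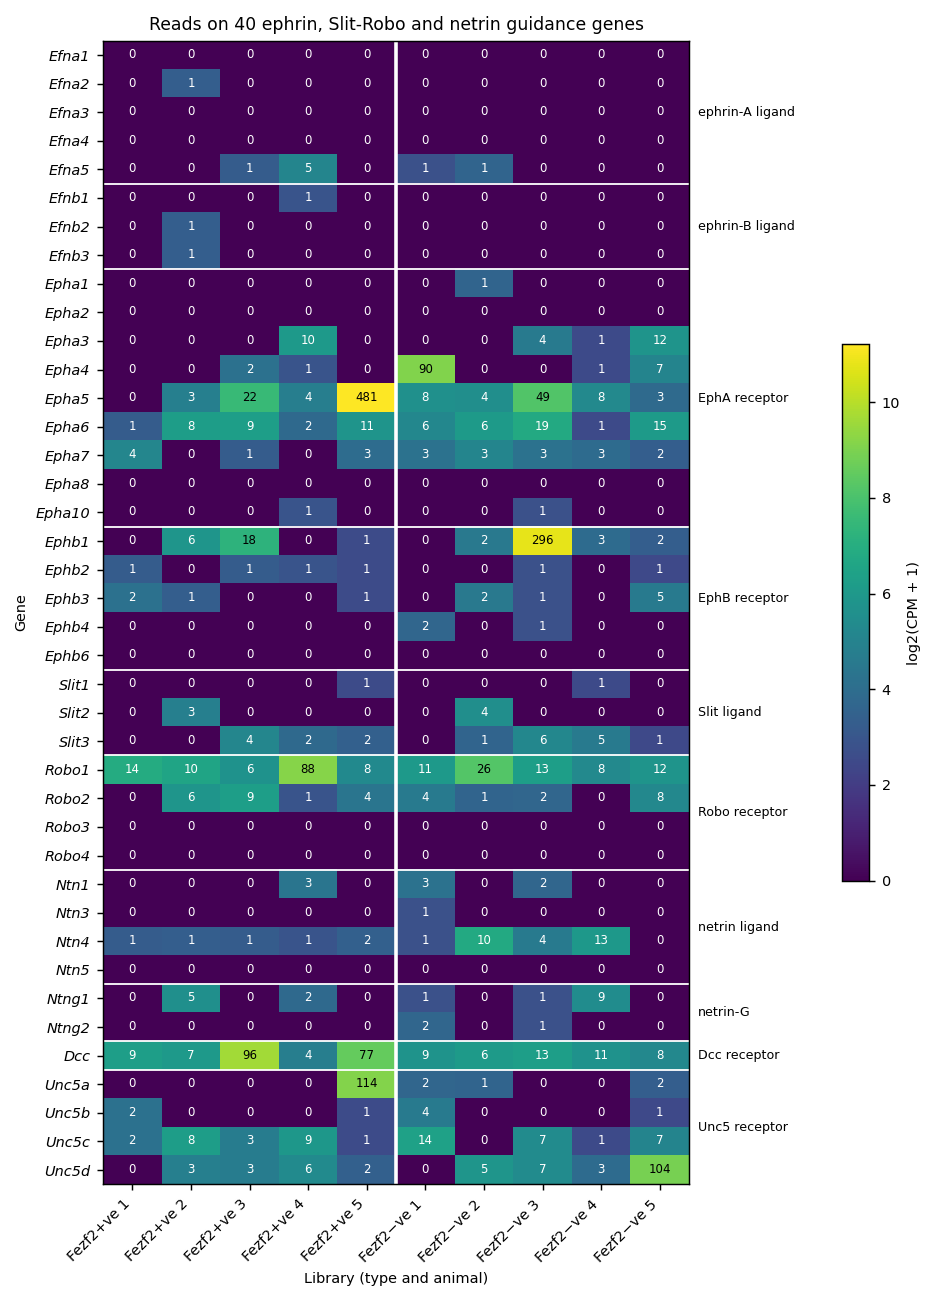
Reads on each of the 40 guidance genes (rows, by class) in each of the 10 libraries (columns, type and animal), printed in the cells, with color giving log2(CPM + 1). Ligand genes have at most 13 reads in a library (*Ntn4* in *Fezf2−ve* 4), and the highest cells are single libraries of receptor genes, such as 481 reads of *Epha5* in *Fezf2+ve* 5 and 296 reads of *Ephb1* in *Fezf2−ve* 3.

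To test the difference between types, genes that reached 10 CPM in 2 or more libraries were fitted with edgeR, with the animal as a block. This left 7409 genes, among them 20 of the 40 guidance genes, and a gene could also pass through reads in 1 type alone. No guidance gene was called at an adjusted p at or below 0.1, against 0% of all tested genes (0 of 7409). At an unadjusted p under 0.05, edgeR counted 0 guidance genes and 288 genes in all (3.89%). DESeq2 with the same block called 0 guidance genes and 98 genes in all (1.32%). It gave an adjusted p for only 7 of the 20 guidance genes (*Dcc*, *Epha4*, *Epha5*, *Ephb1*, *Robo1*, *Unc5a* and *Unc5d*) and for 1664 of the 7409 genes (22.5%), so the other 13 could not be called by it. Without the block, edgeR called 0 guidance genes and 279 genes in all (3.77%), and 2 guidance genes (*Epha4* and *Unc5a*) were among the 1345 genes (18.2%) at an unadjusted p under 0.05. None of the 20 tested guidance genes was higher in the same type in 5 of 5 animals, against 313 of all tested genes (4.22%).

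The adjusted p from edgeR with the block rounded to 0.998 for each of the 20 genes. Their log2 fold changes of *Fezf2+ve* over *Fezf2−ve* ran from −2.04 to 1.31 with a median of −0.39, and the median over all 7409 genes was −0.16. The fold change was above 0 for 6 and below 0 for 14 of the 20 guidance genes, and above 0 for 3388 and below 0 for 4021 of all tested genes. Standard errors on the log2 scale ran from 1.02 to 3.34 among the guidance genes. The fold change exceeded its own standard error for 2 of the 20 (10%), *Dcc* and *Ephb1*, against 2204 of the 7409 genes (29.7%). The values below therefore describe libraries, and no guidance gene was shown to differ between the types. In such bulk samples, fewer cells of a kind and less RNA per cell cannot be told apart.

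**Figure D2:**
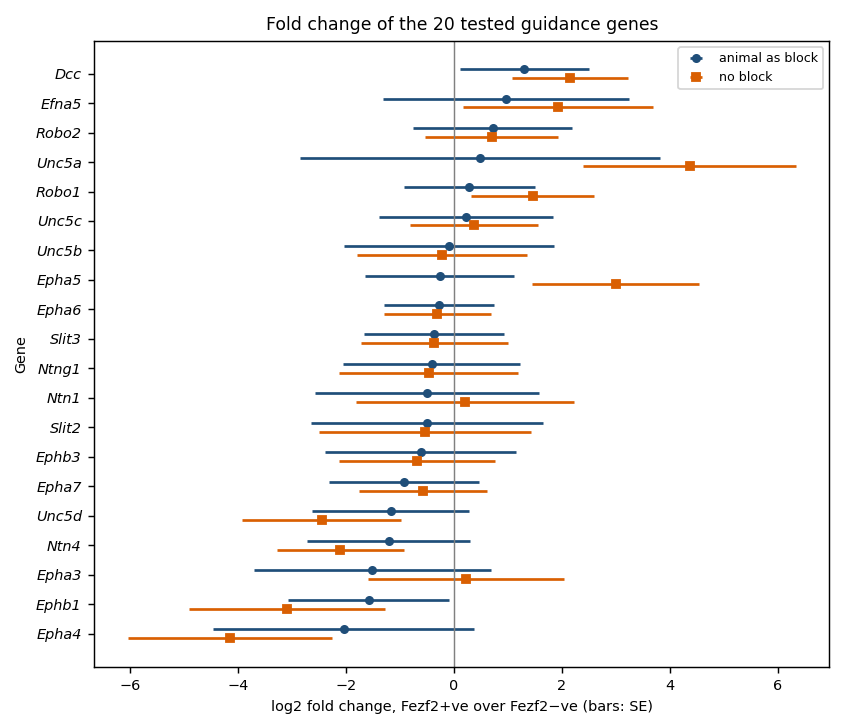
Log2 fold change of *Fezf2+ve* over *Fezf2−ve* for the 20 tested guidance genes, with bars of 1 standard error, from edgeR with the animal as a block (circles) and without it (squares). *Epha5* moves from −0.27 to 3.00 and *Unc5a* from 0.48 to 4.37 when the block is left out.

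Among the ligands, the ephrin-A genes held 9 reads in all. *Efna5*, a ligand known for topographic mapping, had 8 reads, of which 5 were in *Fezf2+ve* 4, and *Efna2* had 1. The ephrin-B genes *Efnb1*, *Efnb2* and *Efnb3* had 1 read each, all in *Fezf2+ve* libraries 2 and 4. A total of 1 read allows no comparison of the types.

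Of the Slit genes, *Slit3* (chr11:35121224-35708507, plus strand of mm10, as for all positions below) had the most reads. It had 0, 0, 4, 2 and 2 reads in *Fezf2+ve* libraries 1 to 5 and 0, 1, 6, 5 and 1 reads in *Fezf2−ve* libraries 1 to 5. The types overlapped, and animal 1 had no read in either library. The level was 11.4 ± 13.9 CPM in *Fezf2+ve* and 15.0 ± 14.5 CPM in *Fezf2−ve* libraries (SD, n = 5), with a log2 fold change of −0.38 (SE 1.30). *Slit2*, the Slit best known for repelling axons from the forebrain midline, had 3 reads in *Fezf2+ve* 2 and 4 in *Fezf2−ve* 2, both from animal 2, and none elsewhere. *Slit1* had 2 reads.

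Of the netrin genes, only *Ntn4* (chr10:93640681-93747207, plus strand) reached 20 reads. It encodes a netrin related to laminin chains that is found in basement membranes. *Ntn4* had 1, 1, 1, 1 and 2 reads in *Fezf2+ve* libraries and 1, 10, 4, 13 and 0 reads in *Fezf2−ve* libraries 1 to 5. Every *Fezf2+ve* library was near 1 read, whereas *Fezf2−ve* 2 and 4 were high and *Fezf2−ve* 5 had none, so the types overlapped. The mean level was 8.53 ± 1.23 CPM against 40.7 ± 46.6 CPM (SD, n = 5), and the log2 fold change was −1.21 (SE 1.51), between −2.10 and −0.48 with 1 animal left out. *Ntn1*, the canonical ligand of *Dcc*, had 8 reads in all, 3 in *Fezf2+ve* 4, 3 in *Fezf2−ve* 1 and 2 in *Fezf2−ve* 3. *Ntn3* had 1 read. The netrin-G proteins are lipid-anchored and bind NGL adhesion proteins rather than *Dcc*, and here *Ntng1* had 18 reads, 9 of them in *Fezf2−ve* 4, while *Ntng2* had 3.

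The EphA receptors held 813 reads, the most of any class. This rank rested on *Fezf2+ve* 5, which had 495 of the 813 reads, and without it the EphB receptors held more. *Epha5* (chr5:84054761-84417382, minus strand), a receptor for ephrin-A ligands, held 582 of the 813 reads. It had 0, 3, 22, 4 and 481 reads in *Fezf2+ve* libraries 1 to 5 and 8, 4, 49, 8 and 3 reads in *Fezf2−ve* libraries 1 to 5. *Fezf2+ve* 5 stood far above the others and *Fezf2−ve* 3 was high within its type, while *Fezf2+ve* 1 had none. The *Fezf2−ve* library was the higher in 4 of 5 animals, although the mean was 521 ± 1033 CPM in *Fezf2+ve* and 86.9 ± 115 CPM in *Fezf2−ve* libraries (SD, n = 5). The medians were 27.9 CPM and 44.9 CPM. With the block the log2 fold change was −0.27 (SE 1.39) and without it 3.00 (SE 1.55). With the block it ran from −1.32 without animal 5 to 0.40 without animal 1. Its direction thus depended on the pairing and on single animals.

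*Epha4* (chr1:77367185-77515088, minus strand) encodes a receptor that binds ephrins of both classes and is known for its part in corticospinal axon guidance. It had 0, 0, 2, 1 and 0 reads in *Fezf2+ve* libraries and 90, 0, 0, 1 and 7 reads in *Fezf2−ve* libraries 1 to 5. The reads lay almost wholly in *Fezf2−ve* 1 (89.1%), and 2 *Fezf2−ve* libraries had none, so the types overlapped. The *Fezf2−ve* library was higher in 2 animals, the *Fezf2+ve* library in 2, and both were at 0 in animal 2. The level was 4.71 ± 7.41 CPM against 115 ± 236 CPM (SD, n = 5). The log2 fold change was −2.04 (SE 2.41), the lowest of the 20 genes, and without the block it was −4.15 with an adjusted p of 0.239 by edgeR. Without animal 1 it was −0.18 with the block.

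*Epha6* (chr16:59653483-60605531, minus strand) was spread most evenly among the receptors with over 50 reads. It had 1, 8, 9, 2 and 11 reads in *Fezf2+ve* libraries and 6, 6, 19, 1 and 15 reads in *Fezf2−ve* libraries 1 to 5. Reads were found in all 10 libraries, the types overlapped widely, and in animals 1 and 4 the *Fezf2+ve* library had 2 reads or fewer. The level was 45.3 ± 32.6 CPM and 57.9 ± 40.4 CPM (SD, n = 5), with a log2 fold change of −0.27 and the smallest standard error of the set (1.02).

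*Epha3* and *Epha7*, which also bind ephrin-A ligands, were lower. *Epha3* (chr16:63543534-63864175, minus strand) had 0, 0, 0, 10 and 0 reads in *Fezf2+ve* libraries and 0, 0, 4, 1 and 12 reads in *Fezf2−ve* libraries 1 to 5. It was confined to 4 of the 10 libraries, and animals 1 and 2 had none in either type. Its log2 fold change was −1.51 (SE 2.20) with the block and 0.23 without it. With the block it ran from −4.52 without animal 4 to 0.40 without animal 5. *Epha7* (chr4:28813131-28967499, plus strand) had 4, 0, 1, 0 and 3 reads in *Fezf2+ve* libraries and 3, 3, 3, 3 and 2 reads in *Fezf2−ve* libraries 1 to 5. All *Fezf2−ve* libraries had *Epha7* reads and 2 *Fezf2+ve* libraries had none, yet the highest value was in *Fezf2+ve* 1. The level was 11.4 ± 14.0 CPM against 18.5 ± 9.16 CPM (SD, n = 5), and the log2 fold change was −0.93 (SE 1.39), between −1.74 and −0.39 with 1 animal left out. *Epha10* had 2 reads and *Epha1* had 1.

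The EphB receptors held 349 reads, of which 328 were on *Ephb1* (chr9:101922128-102354693, minus strand). This receptor for ephrin-B ligands is known for its role at the optic chiasm. It had 0, 6, 18, 0 and 1 reads in *Fezf2+ve* libraries and 0, 2, 296, 3 and 2 reads in *Fezf2−ve* libraries 1 to 5. *Fezf2−ve* 3 held 90.2% of the reads, and *Fezf2+ve* 3, from the same animal, was the highest of its type. The remaining libraries were at 6 reads or below, and the types overlapped. The level was 42.6 ± 65.7 CPM against 360 ± 780 CPM (SD, n = 5), and the log2 fold change was −1.58 (SE 1.49), or −0.63 without animal 3 and −2.61 without animal 2. *Ephb3* had 12 reads over 6 libraries, 5 of them in *Fezf2−ve* 5, *Ephb2* had 6 reads in 6 libraries at 1 read each, and *Ephb4* had 3.

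*Robo1* (chr16:72308306-73046095, plus strand), a receptor for Slits, was found in all 10 libraries. It had 14, 10, 6, 88 and 8 reads in *Fezf2+ve* libraries and 11, 26, 13, 8 and 12 reads in *Fezf2−ve* libraries 1 to 5. *Fezf2+ve* 4 was high, *Fezf2−ve* 2 was the highest of its type, and the others lay between 6 and 14 reads in both types. The level was 176 ± 228 CPM in *Fezf2+ve* and 105 ± 105 CPM in *Fezf2−ve* libraries (SD, n = 5). The log2 fold change was 0.29 (SE 1.21), and −0.49 without animal 4.

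*Robo2* (chr16:73891839-74411825, minus strand) had 0, 6, 9, 1 and 4 reads in *Fezf2+ve* libraries and 4, 1, 2, 0 and 8 reads in *Fezf2−ve* libraries 1 to 5. No library stood apart, and each type had 1 library without *Robo2* reads. The level was 31.6 ± 32.9 CPM against 16.7 ± 14.0 CPM (SD, n = 5), with a log2 fold change of 0.72 (SE 1.47), which ran from 0.075 without animal 3 to 1.54 without animal 1.

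*Dcc*, the netrin receptor that mediates attraction, is encoded by a gene of 1097 kb on chromosome 18 and had 240 reads. It had 9, 7, 96, 4 and 77 reads in *Fezf2+ve* libraries and 9, 6, 13, 11 and 8 reads in *Fezf2−ve* libraries 1 to 5. The *Fezf2−ve* libraries lay close together, whereas *Fezf2+ve* 3 and 5 were high and the other *Fezf2+ve* libraries lay at or near the *Fezf2−ve* values. The *Fezf2+ve* library was the higher in 3 of 5 animals by CPM. The level was 272 ± 334 CPM in *Fezf2+ve* and 57.3 ± 15.4 CPM in *Fezf2−ve* libraries (SD, n = 5), with medians of 76.2 CPM and 53.6 CPM. The log2 fold change was 1.31 (SE 1.20), the highest of the 20 genes, and between 0.60 and 1.84 with any 1 animal left out.

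The Unc5 receptors, which mediate repulsion by netrins, held 312 reads. *Unc5a* (chr13:54949411-55006018, plus strand) had 0, 0, 0, 0 and 114 reads in *Fezf2+ve* libraries and 2, 1, 0, 0 and 2 reads in *Fezf2−ve* libraries 1 to 5. *Fezf2+ve* 5 alone held 95.8% of the reads, and outside it the gene was found only in 3 *Fezf2−ve* libraries at 1 or 2 reads. With the block its log2 fold change was 0.48 (SE 3.34) and without it 4.37 (SE 1.97), where the adjusted p by edgeR was 0.233. Without animal 5 it was −2.61 with the block, and it was −0.29 by DESeq2.

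*Unc5d* (chr8:28646717-29219636, minus strand), which also binds FLRT adhesion proteins, had 0, 3, 3, 6 and 2 reads in *Fezf2+ve* libraries and 0, 5, 7, 3 and 104 reads in *Fezf2−ve* libraries 1 to 5. *Fezf2−ve* 5 held 78.2% of the reads and the other libraries had between 0 and 7, with both libraries of animal 1 at 0. The level was 20.5 ± 15.6 CPM against 118 ± 202 CPM (SD, n = 5), and the log2 fold change was −1.17 (SE 1.45), or −0.19 without animal 5 and −2.22 without animal 4. *Unc5a* and *Unc5d* thus each had their highest library in animal 5, in *Fezf2+ve* for *Unc5a* and in *Fezf2−ve* for *Unc5d*.

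*Unc5c* (chr3:141465216-141834924, plus strand) had 2, 8, 3, 9 and 1 reads in *Fezf2+ve* libraries and 14, 0, 7, 1 and 7 reads in *Fezf2−ve* libraries 1 to 5. Values were scattered over the same range in both types, and *Fezf2−ve* 2 had none. The level was 36.2 ± 29.4 CPM and 32.3 ± 33.5 CPM (SD, n = 5), with a log2 fold change of 0.23 (SE 1.61). This value ran from −0.71 without animal 2 to 1.03 without animal 1. *Unc5b*, a receptor also known in blood vessels, had 8 reads, 4 of them in *Fezf2−ve* 1.

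**Figure D3:**
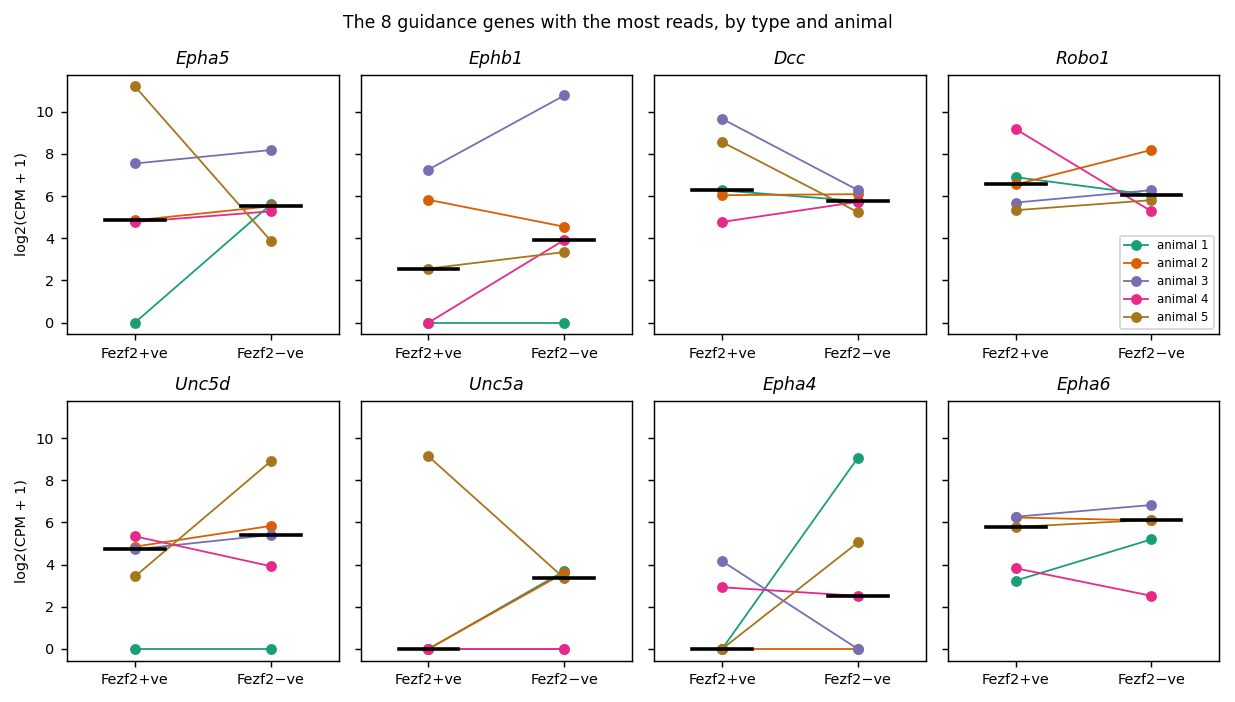
Levels of the 8 guidance genes with the most reads as log2(CPM + 1), with *Fezf2+ve* and *Fezf2−ve* libraries of an animal joined by a line and black bars at the median of each type (n = 5). Lines run in both directions in every panel, and in *Ephb1*, *Unc5a* and *Epha4*, among others, 1 point lies far above the rest.

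The best covered guidance genes differed in how far their reads lay in a single library. Of the 14 genes with at least 20 reads that passed the filter, 5 had over 50% of their reads in 1 library: *Epha5* (82.6%, *Fezf2+ve* 5), *Ephb1* (90.2%, *Fezf2−ve* 3), *Unc5d* (78.2%, *Fezf2−ve* 5), *Unc5a* (95.8%, *Fezf2+ve* 5) and *Epha4* (89.1%, *Fezf2−ve* 1). These libraries belonged to both types. The median share of the top library was 42.2% over the 14 genes and 53.5% over the 4292 tested genes with at least 20 reads, of which 2319 (54.0%) had over 50% in 1 library. Reads in all 10 libraries were found for 3 of the 14 (*Dcc*, *Epha6* and *Robo1*) and for 910 of the 4292 genes (21.2%). *Epha6* and *Epha7*, by contrast, had 24.4% and 18.2% of their reads in the top library. In the table as a whole, the 10 genes with the most reads took between 13.3% and 57.1% of the reads of a library.

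**Figure D4:**
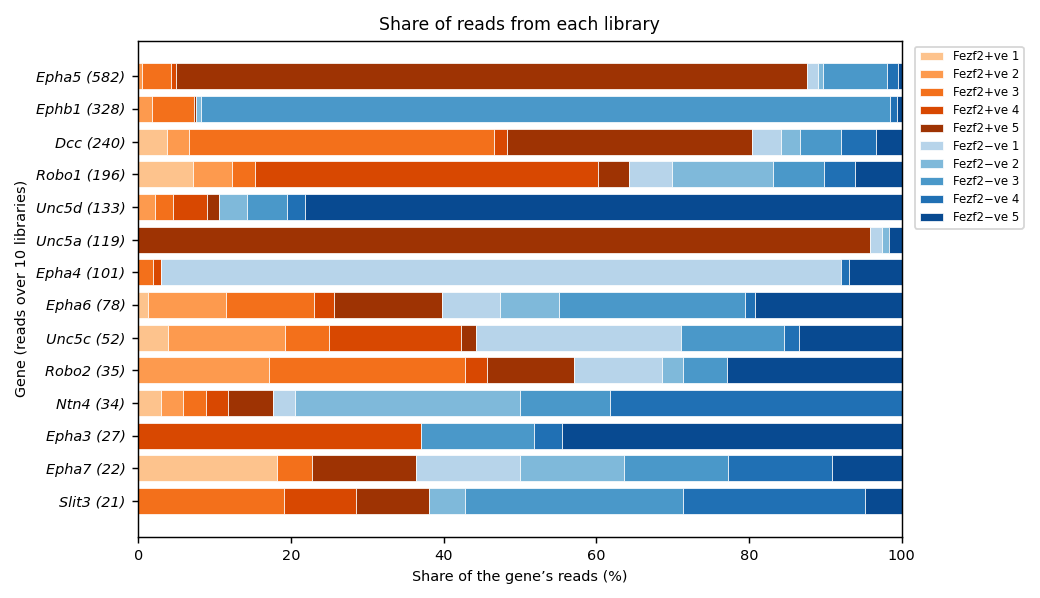
Share of the reads of each of the 14 guidance genes with at least 20 reads that came from each library (oranges, *Fezf2+ve* 1 to 5; blues, *Fezf2−ve* 1 to 5), with the total reads in parentheses. The top library holds 95.8% of the reads of *Unc5a* and 18.2% of those of *Epha7*.

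Read numbers also followed the length of the gene. The study describes its libraries as tag-like and biased to the poly(A) end of transcripts, and holds that length can be left out. Values per length below may therefore not rank genes by transcript number. The spans of the 40 genes in the annotation ran from under 20 kb for most ephrins to 1097 kb for *Dcc*. The 13 guidance genes of up to 20 kb had a median of 0 reads over all libraries, as had the 13281 genes of that size in the table. The median was 2.5 reads for the 8 guidance genes of 20 to 100 kb (all genes, 5), 8 reads for the 7 of 100 to 300 kb (all genes, 21) and 65 reads for the 12 above 300 kb (all genes, 85). Ligand genes had a median span of 12.9 kb and receptor genes one of 148 kb, so that the difference in reads between ligands and receptors cannot be told apart from the difference in span by totals alone. Per 100 kb of span, the 15 ligands had 4.88 reads, the 23 receptors 31.5 and the 2 netrin-Gs 4.97. Per kb of exon, given only as an alternative length, the values were 1.06, 9.66 and 1.72 reads. Without the library with the most reads of each class, an alternative added after the data were seen, the values per 100 kb of span were 3.79 for ligands, 20.1 for receptors and 2.84 for netrin-Gs. *Fezf2+ve* 5 alone held 705 of the 1945 receptor reads.

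Among single genes, *Unc5a* (210 reads per 100 kb of span), *Epha5* (160), *Ephb1* (75.8), *Epha4* (68.3) and *Ephb3* (64.7) ranked highest on this scale, and the first 4 of these owed most of their reads to 1 library. *Robo1* (26.6), *Unc5d* (23.2) and *Dcc* (21.9) lay close together, at levels that their spread over libraries does not separate. Per kb of exon, *Ephb1* (46.8 reads per kb), *Epha5* (34.8), *Unc5a* (28.6) and *Dcc* (18.2) came first, and *Ephb3* fell to 1.81. For *Robo1* and *Robo2* the span depends on the annotation, at 738 and 520 kb in GENCODE but 1020 and 1555 kb in RefSeq. The span of 15 guidance genes overlaps another gene of the table, on which multiCov can count the same read. The overlapping genes had 0 reads in the top library of each guidance gene named above with at least 20 reads, except for *Gm8580*, which had 1 read in *Fezf2−ve* 4, the top library of *Ntn4*.

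**Figure D5:**
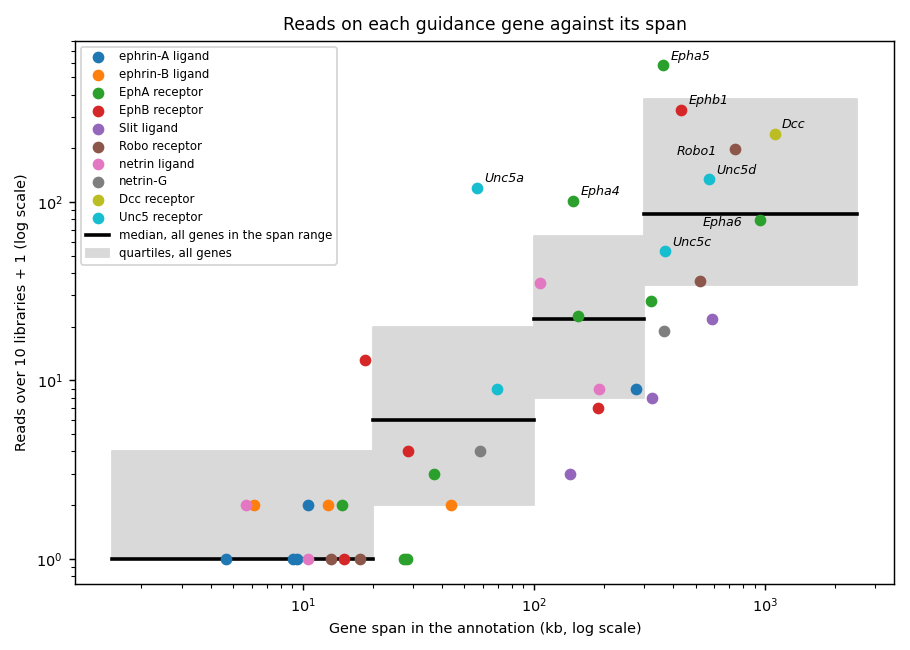
Reads over 10 libraries plus 1 (log scale) against gene span in kb (log scale) for the 40 guidance genes, colored by class, with the median (black) and quartiles (gray) of all genes in 4 span ranges. *Unc5a*, *Epha4*, *Epha5* and *Ephb3* lie above the quartiles for their span, and short ligand genes lie at 0 or 1 read.

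The intracellular and surface partners of these systems were taken from 3 lists of 80 genes, of which 54 were tested. By edgeR with the block none was called, and at an unadjusted p under 0.05 there was 1 gene higher and none lower in *Fezf2+ve* libraries. Of all tested genes, 3.89% were under this p in either direction. Without the block edgeR called 2 of the 54 (3.70%), *Chn2* and *Srgap1*, against 3.77% of all tested genes. DESeq2 called 2 (3.70%), *Srgap1* and *Srgap2*, against 1.32%. It gave an adjusted p for 23 of the 54 (42.6%), against 22.5% of all tested genes. The shares it called are therefore not on equal terms. Of the 29 partners of Ephs and ephrins, 17 were tested, with a median log2 fold change of −0.36, 8 above and 9 below 0. Of the 26 partners of Slits and Robos, 18 were tested, with a median of −0.18, 8 above and 10 below 0. Of the 25 partners of netrins, 19 were tested, with a median of 0.21, 10 above and 9 below 0.

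*Srgap1*, a GTPase-activating protein that binds Robo receptors, had the smallest unadjusted p of these partners. It had 16, 1224, 37, 18 and 612 reads in *Fezf2+ve* libraries and 14, 11, 2, 19 and 14 reads in *Fezf2−ve* libraries 1 to 5. By CPM the *Fezf2+ve* library was the higher in 5 of 5 animals, with 2 and 5 far above the rest, whereas raw reads in animal 4 were 18 and 19. The log2 fold change was 3.71 (SE 1.55), with an adjusted p of 0.998 by edgeR with the block, 0.093 by edgeR without it and 0.048 by DESeq2. *Dag1*, the Slit-binding dystroglycan, had 14 reads in *Fezf2+ve* and 7 in *Fezf2−ve* libraries, the latter all in animal 1, and a log2 fold change of 2.78 (SE 1.87). In the other direction, *Arhgap39*, a GTPase-activating protein that binds Robo, had 7 against 181 reads with a log2 fold change of −4.44 (SE 2.23), and 172 of the 181 reads lay in *Fezf2−ve* 3 and 4. *Cdh2*, the N-cadherin that Slit-Robo signaling acts on, had 11, 4, 1, 3 and 2 reads in *Fezf2+ve* libraries and 107, 6, 56, 5 and 8 in *Fezf2−ve* libraries 1 to 5. It was the lower in *Fezf2+ve* in 5 of 5 animals by CPM, with a log2 fold change of −2.04 (SE 1.15) and an adjusted p of 0.998 by edgeR with the block. *Srgap2*, named after its values were seen, had 216 reads in *Fezf2+ve* libraries, 206 of them in library 3, and 1095 in *Fezf2−ve* libraries, 818 of them in library 4, with an adjusted p of 0.084 by DESeq2.

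Among the partners of Ephs, *Ngef*, the exchange factor ephexin that *Epha4* acts through, had 20 reads in *Fezf2+ve* and 3 in *Fezf2−ve* libraries, 12 of them in *Fezf2+ve* 1, with a log2 fold change of 2.35 (SE 1.80). *Chn1*, a chimaerin that acts below *Epha4*, had 263 against 106 reads, 213 of them in *Fezf2+ve* 5, with a log2 fold change of 0.93 (SE 1.27). *Vav2*, an exchange factor, had 4 against 32 reads, 23 of them in *Fezf2−ve* 3, and a log2 fold change of −1.90 (SE 1.51). *Adam10*, a protease that cleaves ephrins, had 7 against 20 reads and a log2 fold change of −2.06 (SE 1.72). *Chn2*, named after its values were seen, had 7401 of its 7521 reads in *Fezf2−ve* 4, and without the block its adjusted p by edgeR was 0.093. In each of these genes the values of the types overlapped.

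The netrin partners named by the smallest p were *Dscaml1* and *Dscam* for higher and *Cdc42* and *Pak3* for lower levels in *Fezf2+ve* libraries. *Dscam*, a netrin receptor, had 52, 20, 436, 40 and 2738 reads in *Fezf2+ve* libraries and 39, 27, 39, 71 and 14 in *Fezf2−ve* libraries 1 to 5. *Fezf2+ve* 3 and 5 were high, which were also the high libraries of *Dcc*, and the others overlapped. *Dscam* had a log2 fold change of 1.87 (SE 1.62). *Dscaml1* had 409 of its 464 reads in *Fezf2+ve* 2 and a log2 fold change of 2.05 (SE 1.41). The small GTPase *Cdc42* had 640 of its 763 reads in *Fezf2−ve* 2 and a log2 fold change of −1.88 (SE 1.62), and the kinase *Pak3* had 9 against 11 reads and a log2 fold change of −1.11 (SE 1.45).

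The labels of the libraries were set against marker genes of the cell types that the sort could hold. *Fezf2* itself had 1 read, in *Fezf2+ve* 5, and its total in the other 9 libraries was 0. Of 11 markers of excitatory projection neurons, 10 had reads, led by *Camk2a* with 588, while *Tbr1* had none and the glutamate transporter *Slc17a7* had 11. Their summed level was 601, 437, 263, 26.4 and 88.5 CPM in *Fezf2+ve* libraries and 101, 112, 3325, 56.8 and 41.3 CPM in *Fezf2−ve* libraries 1 to 5. These libraries overlapped, and *Fezf2−ve* 3 was far above the rest, 529 of the 588 *Camk2a* reads being in it. Of the 10 markers of subcerebral or corticothalamic neurons, 7 had reads, led by *Foxp2* with 1280, and *Crym*, *Ntsr1* and *Fam84b* had none. *Foxp2* had 6, 2, 31, 1 and 0 reads in *Fezf2+ve* libraries and 560, 5, 665, 3 and 7 reads in *Fezf2−ve* libraries 1 to 5. Most lay in *Fezf2−ve* 1 and 3 and the types overlapped, but the *Fezf2+ve* library was the lower in 5 of 5 animals by CPM. Its log2 fold change was −3.56 (SE 1.41), with an adjusted p of 0.998 by edgeR with the block and 0.067 by DESeq2, which called it. Of the 13 markers of callosal or intratelencephalic neurons, 12 had reads, and *Inhba* had none. *Tshz2* led them with 2661 reads, 2628 of them in *Fezf2−ve* 3. The summed levels of these lists ran from 19.7 to 3971 CPM and from 65.0 to 19661 CPM, with adjusted p of 0.417 for each by exact paired permutation over the 10 marker lists.

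The summed levels of the microglial and of the blood markers were lower in the *Fezf2+ve* library of every animal. All 13 microglial markers had reads, led by *Ctss* with 817, and their summed level was 254, 177, 93.2, 66.0 and 123 CPM in *Fezf2+ve* libraries and 6438, 4633, 6858, 1646 and 3973 CPM in *Fezf2−ve* libraries 1 to 5. The types did not overlap, and the *Fezf2+ve* library was the lower in 5 of 5 animals (exact paired permutation p = 0.063, adjusted p = 0.208 over 10 lists). By edgeR with the block 0 of these 13 genes were called, and 10 were lower in *Fezf2+ve* at an unadjusted p under 0.05 (all tested genes, 3.89% in either direction). Without the block edgeR called 10 (all genes, 3.77%), and DESeq2 called 9 (all genes, 1.32%). All 5 blood markers had reads, led by *Hbb-bs* with 410, with 872, 102, 16.9, 0 and 0 CPM in *Fezf2+ve* and 4520, 3298, 273, 289 and 9.19 CPM in *Fezf2−ve* libraries. The *Fezf2+ve* library was the lower in 5 of 5 animals here too (exact paired permutation p = 0.063, adjusted p = 0.208), although the types overlapped. Of the 4 tested blood genes, edgeR called 0 with or without the block. With the block 4 were lower in *Fezf2+ve* at an unadjusted p under 0.05, and DESeq2 called 2, *Hba-a1* and *Hba-a2* (shares of all genes as above). These 2 genes had the same reads in every library (249 each), and the sum counts them for both. The part of these cells in the values of the guidance genes was not tested.

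No other list had an adjusted p below these. The 10 interneuron markers, of which 6 had reads, were led by *Adarb2* with 1606 and lacked reads of *Slc32a1*, *Pvalb*, *Vip* and *Lhx6*. Their summed level ran from 42.3 to 5286 CPM and was lower in *Fezf2+ve* in 5 of 5 animals (exact paired permutation p = 0.063, adjusted p = 0.208), with the highest values of both types in animal 5. Single markers did not all follow the sum. By CPM *Adarb2* was lower in *Fezf2+ve* in 4 animals and higher in 1, and *Reln* was lower in 2 and higher in 3. Of the 10 astrocyte markers 9 had reads, led by *Slc1a2* with 1817, and *Gfap* had none. All 8 markers of oligodendrocyte precursors had reads, led by *Vcan* with 1008, and 9 of 10 of oligodendrocytes, *Opalin* being at 0. Of 13 endothelial and pericyte markers 11 had reads, led by *Flt1* with 26, and *Esam* and *Vtn* had none. Summed levels in these 4 lists ran from 172 to 7674 CPM, 85.8 to 4735 CPM, 106 to 10795 CPM and 8.46 to 130 CPM, and their adjusted p by exact paired permutation were 0.694, 0.417, 0.694 and 0.694.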

How the data were processed

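The authors demultiplexed reads with sabre, trimmed them, mapped them to mm10 with TopHat2 2.1.1 and counted them on RefFlat genes with the multiCov command of bedtools 2.26.0, per the labels and methods. The deposited counts are whole reads per gene, without normalization. multiCov counts a read on every gene it overlaps. Neither the use of strand nor the counted part, whole genes or exons, is stated in the sources used here. Reads on genes were close in number to the study's reads mapped to mm10, of which it places more in introns than in exons. Reads in introns were therefore counted. Counts of ERCC transcripts were not used, nor was the authors' DESeq2 table, which holds a mean, log2 fold change, standard error, statistic, p and adjusted p per gene.

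Guidance genes were chosen by symbol and fitted within the whole table. Genes with 10 CPM in at least 2 libraries were normalized by TMM and tested with edgeR 4.0.16 (glmQLFTest, R 4.3.3), blocked by animal, with p adjusted over 7409 genes after Benjamini and Hochberg, at 0.1. Standard errors are the log2 fold change over the square root of F. The pairing comes from the numbers in the labels, which the study's text gives as sample pairs, since both types were sorted from each animal. Deviations from the type means correlated with a mean r of 0.033 (−0.0089 to 0.085, 5 pairs) within animals and −0.0082 between animals (20 pairs). Replicates of a type differed by more than counting error, which does not cover amplification or differences between animals. Marker sums were compared by exact two-sided sign-flip permutation, adjusted over 10 lists. Alternatives were no block, DESeq2 1.42.0, other scaling and filters, downsampling, a threshold of 0.05 and leaving out each animal.

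Reads in every library are given for tested guidance genes with at least 20 reads, an unadjusted p under 0.05 or 1 direction in 5 animals, and for the others totals. Of each partner list the 2 genes per direction with the smallest p and at least 20 reads are named, and of each marker list its most abundant gene (except for oligodendrocytes) and those at 0. Members and lists were chosen with earlier results of these data known. Positions and lengths are from GENCODE M21 (mm10, counted from 1). Python 3.11.15, pandas 2.3.3, numpy 2.4.6 and matplotlib were used for the rest. The fits were tested on simulated counts, whose outcome is not given here.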

Additional observations from a re-analysis of the deposited data

Results flagged for a closer look

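In 22 of the 60 groups of 5 libraries examined, 1 library lay far from the others (gap to its neighbor over 0.71 of the range, Dixon's criterion). By chance about 1 in 20 groups of normally distributed values would meet this, but CPM are skewed and a group with 4 libraries at 0, as for *Epha3* and *Unc5a* in *Fezf2+ve*, always does, so the counts are not set against that rate. For the 14 guidance genes with at least 20 reads this held in 9 of 28 groups. In *Fezf2+ve* libraries these were *Epha3* in library 4 (66.0 CPM), *Robo1* in library 4 (581 CPM), *Epha5* in library 5 (2365 CPM) and *Unc5a* in library 5 (561 CPM). In *Fezf2−ve* libraries they were *Epha4* in library 1 (536 CPM), *Robo1* in library 2 (292 CPM), *Epha5* in library 3 (290.4 CPM), *Ephb1* in library 3 (1754 CPM) and *Unc5d* in library 5 (478 CPM). The share of reads on all guidance genes was also apart in *Fezf2−ve* 3 (0.255%).

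Among the partners, the summed level of the netrin list was apart in *Fezf2+ve* 5 (17598 CPM) and that of the Eph list in *Fezf2−ve* 4 (35526 CPM). Among the marker lists, the *Fezf2+ve* libraries apart were 3 for callosal neurons (6107 CPM), 5 for interneurons (1785 CPM), 2 for astrocytes (7674 CPM), 2 for oligodendrocytes (10795 CPM) and 1 for blood (872 CPM). The *Fezf2−ve* libraries apart were 3 for excitatory neurons (3325 CPM), 3 for callosal neurons (19661 CPM), 5 for interneurons (5286 CPM), 4 for astrocytes (3804 CPM) and 1 for oligodendrocytes (2049 CPM). In each case the library apart was the highest of its type. The cause was not tested.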

How the results depend on the processing

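No guidance gene was called by edgeR with or without the replicate block, by DESeq2, or with other scaling or filters. None was called after downsampling, at a threshold of 0.05, or with the block and any animal left out. The lowest adjusted p over these fits was 0.233, by edgeR without the block. DESeq2 gave an adjusted p for only 7 of the 20 tested. Over all genes, edgeR with the block called 0, edgeR without the block 279 and DESeq2 98, and each other alternative called 0. Guidance genes at an unadjusted p under 0.05 numbered 0 with the block and 2 of 20 without it (all genes, 18.2%). In fits without the block that also left out animal 1, 2, 3, 4 or 5, chosen after seeing the data, they numbered 1 of 19, 2 of 18, 3 of 20, 5 of 18 and 1 of 20 (all genes, 16.5%, 16.9%, 15.4%, 16.2% and 16.1%). Partner genes called were 0 with the block, 2 without it and 2 by DESeq2. The median log2 fold change of the tested guidance genes stayed below 0 and ran from −0.63 to −0.13 with 1 animal left out.

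Of the 20 fold changes, 8 kept their sign in every fit that gave a value. Fits without the block that also left out an animal did not enter this count. Other scaling, no filter and the stricter filter (10 genes left) changed no sign. Without the block *Epha3* (0.23), *Epha5* (3.00) and *Ntn1* (0.21) turned above 0. By DESeq2 *Slit2* (0.13) and *Unc5b* (0.029) turned above and *Unc5a* (−0.29) below 0, and after downsampling *Ephb3* (0.15), *Ntng1* (0.49) and *Unc5b* (2.05) turned above 0. With 1 animal left out the range crossed 0 for *Epha3* (−4.52 to 0.40), *Epha5* (−1.32 to 0.40), *Epha6* (−0.63 to 0.014), *Ntn1* (−2.82 to 0.57), *Robo1* (−0.49 to 0.84), *Slit3* (−0.90 to 0.015), *Unc5a* (−2.61 to 1.92) and *Unc5c* (−0.71 to 1.03). The cause was not tested. Ranks by reads per kb moved beyond their spread over libraries for 12 of 31 genes with exon length and for 1 with the RefSeq span, the latter added after seeing the data.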
